A study of Homo sapiens with 8 samples.

Results

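The control cultures of this study are 4 RNA sequencing libraries, shCtrl 1 to 4, of EPC2-hTERT cells grown as a layered epithelium at an air-liquid interface. They were taken by their column titles, and they are 4 of the 8 libraries of the series. EPC2-hTERT cells are human esophageal epithelial cells that telomerase (hTERT) has immortalised, and per the labels they carry a control short hairpin RNA (shCtrl) brought in by lentiviral transduction. Cells were kept in a serum-free keratinocyte medium with bovine pituitary extract and epidermal growth factor, plated on membranes with 0.4 μm pores, and grown for 2 days to confluence. For the next 5 days the medium held 1.8 mM calcium chloride, and after that the upper face was open to air for 4 days. The labels also describe a treatment with dimethyloxalylglycine or its DMSO vehicle before harvest and assign neither to a library, so whether any of the 4 was treated cannot be told. Nothing in the labels says that the 4 came from separate cultures, so the spread among them may be technical. The data are bulk, and more cells of a layer cannot be told apart from more of its RNA per cell. No groups were compared, and all levels are given as a description.

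A stratified squamous epithelium renews itself from a basal layer bound to the basement membrane. Cells that leave it switch keratins, build a cross-linked cornified envelope under the plasma membrane and are shed from the surface. The esophagus uses a non-keratinised version of this program, marked by keratins 4 and 13, cornulin and SPRR3. The epidermis uses keratins 1 and 10, loricrin, filaggrin and many of the late cornified envelope (LCE) proteins.

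The deposited table gives RPKM (read counts divided by gene length and by library size) for 25369 genes, a level per unit of length, so that genes can be set side by side. Reads recovered from it come to 48422873, 43205845, 52401547 and 47774551 for shCtrl 1 to 4. Genes with at least 1 RPKM in every library are called detected here, and there were 9741 of them, or 38.4% of the table. Each count of detected list members below is to be read beside that share. A further measure, a mean of at least 5 RPKM, was met by 7085 genes (27.9%), 591 genes (2.33%) had a mean of at least 100 RPKM, and 76 (0.3%) a mean of at least 1000 RPKM. In at least 1 library 11596 genes (45.7%) reached 1 RPKM. Across the 7085 genes, log2 levels correlated with Pearson r of 0.962 between shCtrl 3 and 4, 0.920 between 1 and 2, and 0.858 between 1 and 3, the lowest of the 6 pairs. In what follows, 4 values given together are RPKM in shCtrl 1, 2, 3 and 4, in that order, means are ± SD with n = 4, and the coordinates of single genes are those of the table, on hg19. A gene can stand in more than 1 list.

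Keratins of activated epithelium, antiprotease peptides and cornified envelope proteins headed the transcriptome. KRT17, an activation keratin encoded at chr17:39775692-39780882, had the highest mean, with 17141, 17879.8, 12545 and 13145 and a mean of 15178 ± 2722 RPKM. PI3 (chr20:43803540-43805185), which encodes the elastase inhibitor elafin, stood next with 20745, 10687, 16884 and 11699, a mean of 15004 ± 4692. It was above KRT17 in shCtrl 1 and 3 and below it in shCtrl 2 and 4. KRT6A (chr12:52880958-52887181), the usual partner of KRT16 and KRT17, had 12713, 13663, 10335 and 9070.2. SLPI, another secreted antiprotease and a neighbour of PI3 on chromosome 20, had 8642, 6749, 10009.8 and 9823.

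Below these 4 came genes of the epidermal differentiation complex, a cluster on chromosome 1 that holds the SPRR, LCE and S100 families. S100A9, a subunit of calprotectin, had 6609.6, 8150.5, 7703 and 5241, and its partner S100A8 had 2649, 4521, 3111 and 2461. SPRR2E had 12375, 4769, 4453 and 6098 and SPRR1B had 5331, 4588, 9664 and 7985, both small proline-rich precursors of the envelope, and their highest libraries differed. S100A11, a calcium-binding substrate of transglutaminase, had 2891, 3545, 10739.7 and 9514, so that shCtrl 3 and 4 both lay above shCtrl 1 and 2. The small heat shock protein gene HSPB1, which is induced as squamous cells differentiate, had 3841, 5003, 6850.0 and 7257. The cystatin genes CSTB (2239, 2876, 5014 and 4579) and CSTA (2138, 2136, 3115 and 3320.3), inhibitors of cysteine cathepsins, and the ferritin heavy chain gene FTH1 (3529, 3288, 5108 and 4234) were also among the 25 highest. Of the cytoskeleton, ACTB (actin) had 2911, 4424, 3091 and 2331 and TMSB10 (thymosin), which binds actin monomers, had 1968, 3023, 3413 and 3169. Ubiquitous genes in that group, EEF1A1 of translation elongation (3673, 3427, 3059.6 and 3204) and RPLP1 of the ribosome (2404, 2513, 2636 and 2805), varied little, by 1.20-fold and 1.17-fold between their lowest and highest library.

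The 20 most abundant genes held 25.03 ± 1.007% of all RPKM and the 100 most abundant 46.7 ± 1.24%. The keratin genes, 56 in the table and 21 with a mean of at least 5 RPKM, held 8.998 ± 1.27%, of which KRT6A, KRT16 and KRT17 together made 6.16 ± 1.12%. PI3 and SLPI alone held 4.75 ± 0.996%. Of the 25 highest genes, 9 lay in the epidermal differentiation complex. The highest genes were short, with a median length of 682 bases against 2866.5 for all genes with a mean of at least 5 RPKM. Counted as reads and not per length, the 20 genes held 14.9 ± 0.886% of the library. Near-identical copies, such as KRT6A, KRT6B and KRT6C, the SPRR2 genes and the LCE2 genes, share reads that the counting could split, so their single levels are uncertain.

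**Figure D1:**
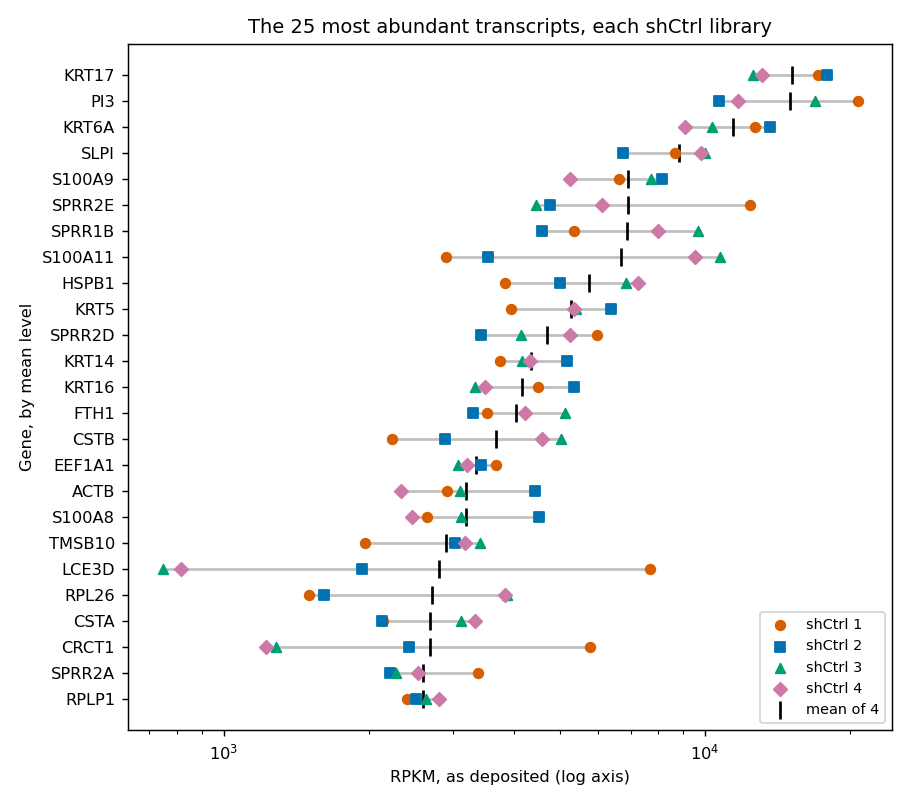
Levels of the 25 most abundant genes (rows, by mean) in RPKM on a log axis; each coloured point is 1 shCtrl library, the grey line spans the lowest to the highest library and the black tick is the mean of 4. LCE3D and CRCT1 lie far to the right in shCtrl 1, S100A11 and RPL26 lie higher in shCtrl 3 and 4 than in shCtrl 1 and 2, and RPLP1 and EEF1A1 show the closest points.

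The markers chosen for esophageal squamous cells were all present, and those of the basal layer were steadier than those of the upper layers. KRT5 and KRT14, the basal keratin pair, had 3959, 6369, 5387 and 5329 (KRT5) and 3739.6, 5154, 4159.7 and 4335 (KRT14) RPKM, with ranges of 1.61-fold and 1.38-fold. IVL, which encodes involucrin, an early scaffold of the envelope, had 372, 439.5, 566 and 622. KRT4 and KRT13, the keratin pair of the esophageal suprabasal layers, had 188, 246, 729 and 382 (KRT4) and 25.7, 157, 676 and 152 (KRT13). Both were highest in shCtrl 3 and lowest in shCtrl 1, by 26.3-fold for KRT13. CRNN (cornulin) had 129.9, 379, 788 and 839, and SPRR3 had 819.8, 1601, 3676 and 2874, and both were again lowest in shCtrl 1. All 7 markers of the labelled cell type were thus detected in all 4 libraries.

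Beyond those pairs, 17 more keratin genes had a mean of at least 5 RPKM. KRT16 had 4486, 5350.0, 3329.5 and 3485 and KRT6B 2179.6, 2179, 1136 and 1037, both activation keratins, while KRT6C reached only 127, 156, 80.3 and 99.5. KRT19, found in basal cells of mucosal epithelia, had 188, 579, 1052 and 697, and KRT15, a basal keratin, had 73.5, 142, 353 and 266. These 2 genes shared an order with KRT4 at the extremes, lowest in shCtrl 1 and highest in shCtrl 3. KRT80 (528, 339, 227 and 203) and KRT78 (277, 271, 349.8 and 239), keratins of upper layers, were of like level to KRT4. The epidermal keratins KRT1 (149, 151, 245 and 333) and KRT10 (176, 129.7, 133 and 212) were both present at over 100 RPKM in all 4 libraries. KRT23 had 603, 97.1, 38.03 and 35.98, with shCtrl 1 above every other library, and KRT75, a companion-layer keratin of the hair follicle, had 65.2, 52.8, 13.7 and 10.6, higher in shCtrl 1 and 2 than in 3 and 4. Of simple-epithelial keratins, KRT18 had 67.5, 76.1, 60.2 and 45.7 and KRT8 13.7, 28.98, 15.2 and 20.3, while KRT7 stayed under 1 RPKM and KRT20 lower still.

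All 24 genes of the basal layer and its anchorage were detected, against 38.4% of the table, and their median mean level was 117 RPKM, against 16.3 for all genes with a mean of at least 5 RPKM. Laminin 332, the ligand that holds basal cells to the basement membrane, was represented by LAMB3 (349, 378, 269.98 and 239.8) and LAMA3 (56.6, 92.7, 84.02 and 77.2). Its receptors in the hemidesmosome, ITGA6 and ITGB4, had 177, 123, 163 and 185 (ITGA6) and 154, 185, 161 and 177 (ITGB4), and ITGA3 and ITGB1, of the other laminin receptor, had 196, 199, 177 and 189 (ITGA3) and 117, 196, 279 and 258 (ITGB1). COL17A1, the transmembrane collagen of the hemidesmosome, had 227, 337, 291 and 295. COL7A1, the anchoring fibril collagen, had 91.2, 70.1, 37.6 and 54.5. TP63, the transcription factor that maintains basal identity, had 36.6, 25.3, 58.5 and 76.8, lowest in shCtrl 2 and highest in shCtrl 4. SOX2, an esophageal lineage factor, and NGFR, a marker of quiescent basal cells, were low, at 1.47, 1.07, 1.53 and 1.19 (SOX2) and 1.62, 1.06, 1.42 and 1.11 (NGFR). Of the 21 members with a mean of at least 5 RPKM, 12 were lowest in shCtrl 1, as were 34% of all such genes.

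Junction genes differed little for the most part. Among 13 desmosome genes 11 were detected, with a median range of 0.58 on the log2(RPKM + 0.1) scale against 0.75 for all genes with a mean of at least 5 RPKM. JUP (plakoglobin), which links cadherins to the plaque, had 920.1, 1156, 1239.6 and 1218, and DSP (desmoplakin), which ties the plaque to keratin, had 478, 429, 451 and 579. Of the cadherins, DSG3, the basal and mucosal desmoglein, had 243, 374, 324 and 319, DSG2 had 32.4, 39.3, 40.4 and 39.5 and DSG1, the desmoglein of upper epidermis, only 2.55, 4.23, 3.70 and 11.03, the one desmosome gene with a range past 4-fold. PERP, a membrane protein of the desmosome, had 868, 901, 679 and 702. PKP1 was at 509.6, 634, 492 and 594 and PKP3 at 299, 254, 113 and 127, both plakophilins of the plaque. Adherens, tight and gap junction genes were detected in 18 of 21 cases and none of those 18 with a mean of at least 5 RPKM had a range of 4-fold, though their median range of 0.75 was that of all genes. GJB2 (connexin 26) led them with 511, 1088, 803 and 673, followed by CLDN4 with 270.5, 185, 119 and 178 and CDH1 (E-cadherin) with 113, 145, 188 and 189.

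Mucosal differentiation genes were expressed at a high but uneven level, and most were lowest in shCtrl 1. Of 27 genes of the esophageal suprabasal program 22 were detected and 21 had a mean of at least 5 RPKM. The median level of the 27 was 253 RPKM, and it was 112 with shCtrl 3 left out. The median range of the 21 was 1.95 in log2, and 1.05 without shCtrl 1. A range of at least 4-fold was found for 10 of the 21, against 4.52% of all genes with a mean of at least 5 RPKM. Of the 21, 13 were lowest in shCtrl 1 (34% of all such genes) and 11 highest in shCtrl 3 (19.2% of all such genes).

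Further members of the list with a range of at least 4-fold follow. CLCA4, a regulator of chloride conductance, had 2.17, 15.9, 74.7 and 30.4, a 34.4-fold spread. MAL, an apical sorting protein, had 20.1, 65.3, 206 and 95.1, and RHCG, an ammonium transporter of the upper esophageal layers, had 112, 462, 437 and 229.96. TGM3, a transglutaminase of the envelope, had 2.09, 22.1, 27.7 and 10.5, and ENDOU, a secreted endoribonuclease, had 1.25, 23.5, 12.9 and 7.41. In all 5 genes shCtrl 1 was lowest, and the highest library was shCtrl 3 or shCtrl 2.

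Other members ran differently. CNFN (cornifelin), an envelope component, had 3959, 1355, 1042 and 732, highest in shCtrl 1. KRT80 and SLURP1, a secreted ligand of nicotinic receptors (432, 435, 204 and 211), were also higher in shCtrl 1 and 2 than in 3 and 4. The plakins PPL (335, 335, 290.2 and 293) and EVPL (64.6, 70.4, 57.9 and 60.1), which join the envelope to desmosomes, differed little across libraries. SPINK5 (533, 359.7, 746 and 714) and SPINK7 (556, 495, 837 and 644), inhibitors of surface proteases, and EMP1, a membrane protein of squamous layers (401, 718, 664 and 446), were abundant in all 4. CRISP3, at 0.120, 0.330, 1.48 and 2.36, and TMPRSS11A, at 0.357, 0.524, 1.41 and 1.78, were close to the limit of detection used here.

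Epidermal differentiation genes were present beside the mucosal ones, and most were highest in shCtrl 1. Of 32 genes of the epidermal suprabasal program 28 were detected, and the median level of all 32 was 28.5 RPKM. Of the 27 with a mean of at least 5 RPKM, 19 were highest in shCtrl 1 (25.2% of all such genes). A range of at least 4-fold was found for 12 of the 27, against 4.52% of all such genes. The median range of 1.76 in log2 came to 0.76 with shCtrl 1 left out. KRTDAP, a secreted keratinocyte peptide, had 2972, 960.4, 789 and 659, and SBSN (suprabasin) had 1714, 1129.6, 1064 and 1012. DMKN (dermokine) was abundant and even, with 1052, 949.9, 976 and 1033.

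The late epidermal genes were low in 3 libraries and higher in shCtrl 1. ASPRV1, the protease that processes filaggrin, had 171, 20.03, 3.60 and 2.12, the widest range of the ranked genes at 81.0-fold. FLG (filaggrin), of the granular layer, had 93.2, 10.7, 7.497 and 11.1, and LOR (loricrin), the main envelope protein of epidermis, had 43.9, 19.4, 2.62 and 10.9. CDSN (corneodesmosin), a cornified-layer adhesion protein, had 142, 29.5, 13.5 and 12.1, and CASP14, the caspase of cornification, had 15.3, 1.83, 1.62 and 4.27. CALML5, a calmodulin-like protein of epidermis, had 357, 127, 45.8 and 41.7, but its relative CALML3 had 40.3, 151, 186 and 184, lowest in shCtrl 1. Genes of the epidermal lipid barrier were also highest in shCtrl 1, with ABCA12, the lipid transporter of lamellar granules, at 58.4, 16.5, 11.5 and 15.8, ALOX12B, a lipoxygenase, at 64.5, 42.3, 27.5 and 19.3 and ELOVL4, which elongates ceramide acyl chains, at 110.01, 59.2, 39.9 and 38.5. CERS3, the ceramide synthase of the barrier, was even, at 26.8, 24.8, 30.8 and 31.2. The KRT1 and KRT10 pair did not have shCtrl 1 highest, since both were highest in shCtrl 4.

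**Figure D2:**
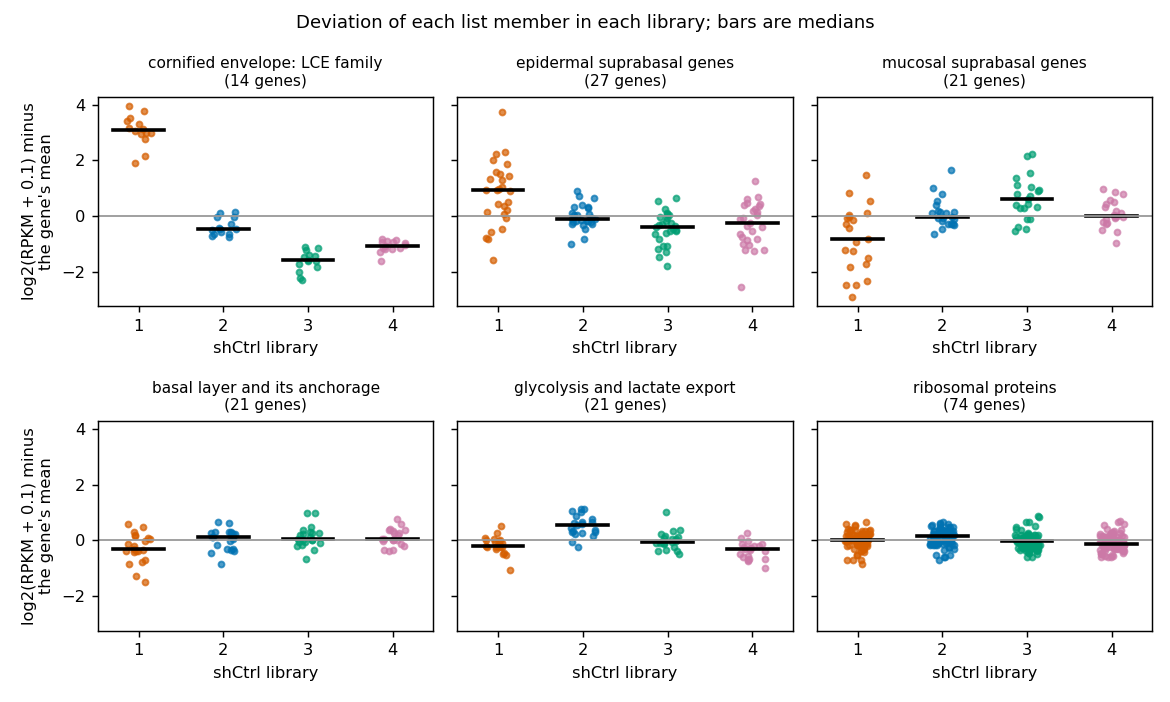
For 6 gene lists, each point is 1 gene in 1 shCtrl library, as log2(RPKM + 0.1) minus the mean of that gene over the 4 libraries; black bars are list medians and only genes with a mean of at least 5 RPKM are drawn. The LCE family has a median of 3.08 in shCtrl 1 and −1.59 in shCtrl 3, the mucosal genes −0.84 in shCtrl 1 and 0.62 in shCtrl 3, and the ribosomal protein genes lie near 0 in all 4.

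The epidermal differentiation complex, taken from S100A10 to S100A1 at chr1:151955386-153604513 of hg19, held 11.9 ± 1.98% of all RPKM, with 14.6, 9.89, 11.7 and 11.3% in shCtrl 1 to 4, and 4.32% of reads. It has 65 genes in the table, 47 with a mean of at least 5 RPKM. Of those 47, 28 had a range of at least 4-fold, against 4.52% of all such genes. Of the 28, 25 were highest in shCtrl 1, as were 55.9% of all genes with that mean and range. The other 3, CRNN, SPRR3 and SPRR2F, were higher in shCtrl 3 and 4. The mean includes the highest library, so a gene can pass through it alone, as SPRR4 did (25.6, 0.846, 3.64 and 2.84). The S100 family, most of which lies in the region, had a range of 4-fold or more in 1 of 13 members (S100A4, at 20.5, 10.8, 3.25 and 5.83). That is less often than in the region and near the 4.52% of all such genes. Its median range was still wider than that of all such genes, at 1.09 against 0.75 in log2.

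The LCE genes, which encode late structural proteins of the envelope, differed most. Of 18 such genes 14 had a mean of at least 5 RPKM. All 14 had a range of at least 4-fold, and all were highest in shCtrl 1 and lowest in shCtrl 3. Among all genes with such a mean, the shares were 4.52, 25.2 and 25.6%. LCE3D (chr1:152551860-152552980) had 7690.2, 1934, 746 and 815 and LCE3E had 2968, 855, 355 and 443. LCE1A, at 604, 54.96, 24.6 and 40.7, LCE2B, at 509.9, 44.4, 23.5 and 34.3, and LCE1F, at 503, 38.4, 22.1 and 30.6, followed. The 4 libraries kept the same order, 1 over 2 over 4 over 3, in each of these 5 genes. Without shCtrl 1 the median level of the 18 was 13.7 RPKM in place of 71.8, and the median range 1.15 in place of 4.67. LCE6A had the widest range of the family at 78.0-fold, with 223, 14.02, 2.85 and 4.66. LCE5A was low (5.85, 0.848, 0.909 and 0.0767) and LCE3B and LCE3C were listed at 0 in all 4 libraries. Next to the LCE genes in the region, KPRP, a keratinocyte proline-rich protein, had 675, 56.9, 32.96 and 49.4, CRCT1, a cysteine-rich protein, had 5776, 2419.8, 1285 and 1223, and PRR9 had 304, 46.4, 16.4 and 16.2.

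SPRR genes were abundant and split in direction. Their 11 members had a median level of 2243 RPKM, which came to 1381 without shCtrl 1. SPRR2E, SPRR2D (5973, 3419.7, 4139 and 5232), SPRR2A (3373, 2211, 2279 and 2527), SPRR2G (5139, 1507, 1175 and 1462) and SPRR2B (479, 110.02, 59.2 and 103) were highest in shCtrl 1, and SPRR1A (1154, 785, 1416 and 1218), SPRR1B and SPRR3 in shCtrl 3. TGM1, the transglutaminase that cross-links them, had 366, 571, 346 and 217, and SCEL (sciellin) had 299, 306, 494 and 346.

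Sequences before the start of transcription are shown for members that stood at the 2 ends of this contrast, 7 of them within the epidermal differentiation complex and CLCA4 elsewhere on chromosome 1. The 5 LCE genes were highest in shCtrl 1, while CRNN, CLCA4 and SPRR3 were lowest there. Each is the 100 bases before the RefSeq gene start on GRCh38.p14, read 5′ to 3′ on the strand of the gene, with matches to TATAAA or ATAAAA in capitals.
LCE1C: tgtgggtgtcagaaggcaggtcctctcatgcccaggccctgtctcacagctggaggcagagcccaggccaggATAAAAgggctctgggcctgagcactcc
LCE2C: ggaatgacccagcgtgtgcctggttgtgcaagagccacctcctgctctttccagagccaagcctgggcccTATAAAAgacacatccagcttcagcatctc
LCE2D: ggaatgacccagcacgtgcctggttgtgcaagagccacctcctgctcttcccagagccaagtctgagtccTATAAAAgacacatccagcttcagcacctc
LCE3D: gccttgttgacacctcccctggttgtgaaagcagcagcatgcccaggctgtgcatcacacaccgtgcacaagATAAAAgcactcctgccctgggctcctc
LCE6A: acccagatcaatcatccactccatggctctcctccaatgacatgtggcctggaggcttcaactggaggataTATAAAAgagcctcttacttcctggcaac
CRNN: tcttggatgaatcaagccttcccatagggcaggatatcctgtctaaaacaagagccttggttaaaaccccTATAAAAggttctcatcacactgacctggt
CLCA4: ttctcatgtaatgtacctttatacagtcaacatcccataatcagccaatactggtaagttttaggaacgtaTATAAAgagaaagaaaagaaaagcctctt
SPRR3: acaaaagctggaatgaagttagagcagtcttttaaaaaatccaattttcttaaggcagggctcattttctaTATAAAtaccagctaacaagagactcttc
The positions are chr1:152806652-152806751 (−) for LCE1C, chr1:152675179-152675278 (+) for LCE2C, chr1:152663280-152663379 (+) for LCE2D, chr1:152580517-152580616 (−) for LCE3D, chr1:152842756-152842855 (+) for LCE6A, chr1:152414264-152414363 (−) for CRNN, chr1:86546978-86547077 (+) for CLCA4 and chr1:153001649-153001748 (+) for SPRR3. All 8 held 1 or both of the motifs, starting 28 to 30 bases before the gene start. TATAAA and ATAAAA can overlap by 5 letters, and where they did the run of capitals is TATAAAA. LCE1C and LCE3D held ATAAAA alone, CLCA4 and SPRR3 TATAAA alone, and the other 4 both. LCE2C and LCE2D, whose levels were 413, 34.3, 15.4 and 20.3 (LCE2C) and 484, 40.4, 13.9 and 21.7 (LCE2D), had the same base at 93 of the 100 positions. Searched on both strands over the same 100 bases, 1 or both motifs were in 31 of 45 promoters of complex genes with a mean of at least 5 RPKM (68.9%, from 41 of the 47 genes), and in 12 of 13 LCE promoters. The share was 53.8% of 13 promoters of the mucosal genes, 4.90% of 7918 promoters of all genes with a mean of at least 5 RPKM, and 8.86% of all 35116 promoters in the RefSeq table. Counted by itself, ATAAAA was in 92.3% of the LCE and 23.1% of the mucosal promoters, and TATAAA in 38.5 and 53.8%, against 2.99 and 3.06% for all genes with a mean of at least 5 RPKM. A match is a description of letters. LCE1B, KRT13, SPRR2E, KRT17, KRT6A, PI3 and SLPI had no entry.

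Protease inhibitors, secreted and intracellular, were abundant. Of 28 such genes 23 were detected, 14 had a mean of at least 100 RPKM, and the list made 6.93 ± 1.15% of all RPKM, most of it from PI3, SLPI, CSTB and CSTA. SERPINB7 (838, 522, 639 and 557), SERPINB2 (352, 369.9, 703 and 734) and SERPINB5 (maspin, 248, 551, 472 and 413) were the leading serpins of the clade that acts largely inside squamous cells. WFDC12, of the same gene cluster as PI3, had 1217, 374, 398 and 311, highest in shCtrl 1. None of the 23 with a mean of at least 5 RPKM had a range of 4-fold, against 4.52% of all such genes. Their median range was nevertheless wider than that of all such genes, at 1.05 against 0.75 in log2.

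Kallikreins and other epithelial proteases were lower, with a median of 26.3 RPKM over 32 genes, against 105 for the inhibitor list. Which proteases these inhibitors act on was not tested. Lysosomal cathepsins led, with CTSD at 439.6, 412, 351 and 323 and CTSB at 297, 340.2, 304 and 286. Of the membrane serine proteases, PRSS8 (prostasin) had 271, 159, 183 and 139 and ST14 (matriptase), its activator, 81.2, 124, 137 and 113. Kallikreins, which cleave desmosomal proteins at the surface, were led by KLK5 (262, 113, 93.4 and 127), KLK10 (137, 95.1, 103 and 119.6) and KLK7 (120.2, 79.7, 72.8 and 110.2). CAPN14, a calpain of esophageal epithelium, had 0.416, 8.56, 14.7 and 3.84, near 0 in shCtrl 1 and highest in shCtrl 3.

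Defence products other than the antiproteases and calprotectin were also abundant. LCN2, which binds bacterial siderophores, had 1499.6, 1584, 2545 and 2419, S100A7 (psoriasin) 88.1, 118, 118 and 118 and DEFB1, a constitutive defensin, 34.7, 29.4, 27.9 and 20.3. RNASE7, an antimicrobial ribonuclease, had 504, 76.9, 74.2 and 69.9, so that shCtrl 1 lay far above the other 3. The membrane mucins MUC15 (11.5, 12.7, 32.1 and 39.04), MUC20 (8.16, 16.1, 50.6 and 28.8) and MUC1 (7.43, 9.71, 32.1 and 18.4) were higher in shCtrl 3 and 4 than in 1 and 2.

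Of 42 cytokine and chemokine genes 12 were detected, against 38.4% of the table. The higher ones were mainly of the interleukin 1 family, with the receptor antagonist IL1RN at 414, 685, 897 and 808, the agonists IL1B at 384, 368, 297 and 505 and IL1A at 123, 146, 116 and 198, IL36A at 15.6, 75.8, 69.8 and 62.2 and IL18 at 29.2, 29.7, 80.1 and 67.2. The chemokine CXCL14, of resting epithelium, had 5.52, 3.73, 15.2 and 22.1, while CXCL8, which recruits neutrophils, stayed under 1 RPKM with 0.908, 0.394, 0.951 and 0.712. IL33, an epithelial alarmin, had 0.282, 1.66, 1.78 and 0.480.

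Growth factor and matrix genes were detected in 35 of 44 cases. TGFBI, a matrix protein induced by TGF-beta, had 291, 567, 464 and 396, ECM1 234, 235, 440.4 and 279 and LGALS3 (galectin 3) 156, 261, 264 and 195. Ligands of the epidermal growth factor receptor were present, with TGFA at 126, 122, 101 and 100.3, HBEGF at 68.7, 10.1, 19.03 and 34.7, EREG at 42.1, 10.1, 18.2 and 70.1 and AREG at 9.11, 7.90, 1.09 and 5.67. VEGFA, the main angiogenic factor, had 201, 33.01, 40.1 and 52.3, highest in shCtrl 1 by far. LGALS7B, which shares its sequence with a duplicate gene so that its level is uncertain, had 183, 72.3, 6.13 and 14.8.

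Glycolytic genes were well expressed and mostly highest in shCtrl 2. Of 28 genes from glucose entry to lactate export 22 were detected, and 17 of the 21 with a mean of at least 5 RPKM were highest in shCtrl 2, against 29.8% of all such genes. The median deviation from the gene mean was 0.56 in log2 in shCtrl 2 and −0.33 in shCtrl 4. The median range was 1.02 and came to 0.48 without shCtrl 2. The glucose transporter SLC2A1 had 219, 305, 245 and 188, and HK1 and HK2, the hexokinases of the entry step, had 50.2, 41.2, 48.1 and 58.2 (HK1) and 15.7, 23.1, 23.98 and 14.4 (HK2). GPI, which makes fructose 6-phosphate, had 21.7, 58.2, 25.1 and 16.03. PFKP, the leading phosphofructokinase gene, had 32.5, 69.8, 45.9 and 36.9, with PFKL at 18.8, 29.8, 14.6 and 15.98 and PFKM at 11.9, 12.5, 9.39 and 10.8.

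The steps from aldolase on had higher levels. ALDOA had 232, 367, 293 and 215, TPI1 212, 322, 199.97 and 144 and GAPDH 706, 1055, 869.7 and 724, the highest of the list. PGK1, the first ATP-forming step, had 104, 213, 112 and 74.2, PGAM1 161, 242, 148 and 116 and ENO1 201, 284, 131 and 106. PKM, which makes pyruvate, had 618, 679, 782 and 746, and differed from most by being highest in shCtrl 3. Lactate dehydrogenase was mainly LDHA (364, 508, 503 and 378) over LDHB (112, 117, 56.9 and 52.4), and the lactate exporter SLC16A3 had 48.5, 113, 52.8 and 33.9 with its chaperone BSG at 195, 243, 190.3 and 182. SLC2A3, a high-affinity glucose transporter, had 4.84, 21.5, 20.8 and 5.10, low in shCtrl 1 and 4.

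Mitochondrial genes were steadier than the glycolytic ones, but not far from genes at large. The median range in log2 was 0.74 for pyruvate entry and the tricarboxylic acid cycle and 0.67 for the respiratory chain. It was 1.02 for glycolysis and 0.75 for all genes with a mean of at least 5 RPKM. The 32 genes of pyruvate entry and the tricarboxylic acid cycle had a median of 18.0 RPKM, and none reached a mean of 100. MDH2 (60.3, 66.5, 62.9 and 59.7), CS (citrate synthase, 58.6, 58.7, 58.6 and 62.9) and IDH1, the cytosolic dehydrogenase (44.5, 59.7, 52.9 and 53.1), led them. PDK1, a kinase that shuts pyruvate dehydrogenase, was low at 0.897, 1.91, 2.50 and 0.561. Of 77 nuclear-encoded respiratory chain genes 73 were detected, against 38.4% of the table, with a median of 49.0 RPKM. Of the 72 with a mean of at least 5 RPKM, 47 were highest in shCtrl 2, against 29.8% of all such genes. COX6A1 had 262, 289, 297 and 284 and COX4I1 243, 285, 219 and 198, subunits of cytochrome oxidase. ATP5J2, of ATP synthase, had 106, 139.5, 389 and 350.3, higher in shCtrl 3 and 4, and COX7C had 304, 343, 140.1 and 134, higher in shCtrl 1 and 2. None of the 72 had a range of 4-fold, nor did all but 1 of the 28 cycle and pyruvate entry genes with such a mean, against 4.52% of all such genes. The table holds no mitochondrially encoded gene.

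Redox genes included FTL of ferritin (1096, 1596, 1042 and 1289), GSTP1, a glutathione transferase (688, 1024, 513 and 471), and HMOX1, the heme oxygenase (273, 69.6, 36.4 and 32.1), which was highest in shCtrl 1. In lipid metabolism FABP5, the epidermal fatty acid binding protein, had 867, 1316, 1651 and 1965 and SCD, the stearoyl desaturase, 349, 449.8, 354 and 414, with the elongase ELOVL1 at 168, 125, 64.7 and 55.2. Genes of fatty acid oxidation were low, with a median of 7.10 RPKM over 18, led by ACADVL at 181, 111, 108 and 102, HADHA at 55.9, 57.1, 59.3 and 59.8 and ETFA at 52.6, 54.2, 45.7 and 44.04, enzymes of the mitochondrial pathway. Cholesterol genes, 25 of 26 detected against 38.4% of the table, were higher in shCtrl 1 and 2. Of the 24 with a mean of at least 5 RPKM, 14 were highest in shCtrl 2 and 9 in shCtrl 1. Among all such genes the shares were 29.8 and 25.2%. MSMO1, a sterol oxidase, had 128, 198, 97.9 and 95.6. SULT2B1, which makes cholesterol sulfate, led the list with 403, 308, 264 and 189.5.

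The oxygen-sensing factors were both expressed. HIF1A had 95.2, 51.4, 89.8 and 122 and EPAS1, which encodes HIF2α, 61.1, 31.6, 38.4 and 54.01, and in both shCtrl 2 was lowest. Their partner ARNT was low and even, at 5.06, 6.08, 6.47 and 7.48. Of the prolyl hydroxylases that mark them for decay, EGLN3 had 40.4, 29.96, 34.4 and 11.4 and EGLN1 3.30, 3.97, 5.22 and 2.36. NDRG1, a stress and hypoxia gene, had 364, 623, 802 and 643 and CA2 (carbonic anhydrase 2) 456, 472, 318 and 368. CA9, a classical hypoxia target, had 1.57, 3.32, 0.160 and 0.242, so that it was under 1 RPKM in shCtrl 3 and 4.

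Transcription factors of squamous cells were detected in 34 of 36 cases, and 16 of 31 with a mean of at least 5 RPKM were highest in shCtrl 4 (25.8% of all such genes). PITX1 had 424, 276, 251 and 265, the highest of the list, and JUNB, of the AP-1 family, 284, 241, 261 and 327. KLF5, a factor of basal and spinous cells, had 72.8, 74.3, 222 and 319 and its relative KLF4, of barrier formation, 155, 61.1, 64.6 and 115. FOSL1 was at 94.3, 66.5, 158 and 281 and PRDM1 at 67.3, 14.9, 36.9 and 83.96, both highest in shCtrl 4 and lowest in shCtrl 2. GRHL3 (96.7, 68.3, 123 and 131) and ZNF750 (64.8, 38.8, 59.3 and 97.03), factors of terminal differentiation, were present in all 4, as was PAX9 of the esophagus (33.8, 20.03, 58.6 and 68.5). NOTCH1 had 64.4, 23.3, 19.3 and 35.7, highest in shCtrl 1.

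Of 26 proliferation genes and regulators 12 were detected, against 38.4% of the table, and 9 had a mean of at least 5 RPKM. Those that mark mitosis were low. MKI67, a protein of cycling nuclei, had 0.0248, 0.0037, 0 and 0.0285. CCNB1, the mitotic cyclin, had 1.89, 1.93, 1.54 and 0.705 and AURKA, the spindle kinase, 0.965, 1.28, 0.427 and 0.263. PCNA, the replication clamp, had 30.3, 40.9, 42.5 and 38.3 and CCND1, the G1 cyclin, 21.2, 48.02, 38.7 and 26.7, while CDKN1A, which encodes the inhibitor p21, had 463, 391, 289 and 569. CDKN2A, which encodes p16 and ARF, had 1.84, 1.72, 2.93 and 8.36, low in 3 libraries and highest in shCtrl 4. TERT, the transgene of the line, had 232, 179, 91.9 and 101, at 91.9 RPKM or more in all 4 libraries. Reads of the transgene and of the endogenous gene cannot be told apart in this table.

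Ribosomal protein genes were mostly even across libraries. Of 75, 74 were detected and 73 had a mean of at least 100 RPKM, and the list made 13.2 ± 0.539% of all RPKM. The median range was 0.52 in log2 and none of the 74 on the list with a mean of at least 5 RPKM reached 4-fold. For all such genes the median range was 0.75, and 4.52% reached 4-fold. RPL36A, a ribosomal protein gene that the list did not hold, had 37.4, 41.1, 234 and 193, a 6.27-fold spread with shCtrl 3 and 4 high. RPS6 had 1354, 1425, 1428 and 1404, one of the 8 narrowest ranges of the ranked genes. Some single members were less even, with RPL26 at 1504, 1611, 3869 and 3839.7, RPS25 at 896, 1022, 2073 and 2389 and RPS26 at 336, 401, 1112 and 888, all higher in shCtrl 3 and 4, and RPS19 at 1384, 1661, 762 and 712, higher in shCtrl 1 and 2.

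Genes of other lineages, simple-epithelial keratins aside, were almost silent. The list of those keratins was left out of the counts below, and 3 of its 5 genes were detected, KRT23, KRT18 and KRT8. Over 12 lists of gastric, intestinal, fibroblast, endothelial, leukocyte, eosinophil, mast cell, melanocyte, neural, muscle, liver, blood, ciliated, germ cell and hair genes, 9 of 151 were detected, against 38.4% of the table, and 73 were listed at 0 in all 4 libraries, against 28.9%. The highest mean of any gastric or intestinal gene was 0.0332 RPKM, and the summed levels were 0.186, 0.0876, 0 and 0.0511, with CDX2, MUC2, MUC6 and CLDN18 at 0. Among leukocyte genes PTPRC (CD45), CD3D, CD3E and TYROBP were listed at 0. Of 16 eosinophil and mast cell genes 13 were at 0 in all libraries and the highest mean of any was 0.122 RPKM. Their summed level was 0.516 RPKM in shCtrl 1 and 0 in the other 3. The melanocyte genes MLANA, DCT and TYR, the neural gene SOX10 and the muscle genes DES and MYOD1 were also at 0.

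The 9 exceptions were named after their values were seen. VIM (vimentin), a filament of mesenchymal and of cultured epithelial cells, had 48.7, 65.1, 51.3 and 55.1, and COL1A1 22.5, 23.3, 21.2 and 27.7, while the fibroblast genes COL3A1, DCN and THY1 were at 0. CD68, a lysosomal protein, had 23.5, 55.4, 115 and 90.9 and CD14 10.02, 4.51, 1.53 and 3.35, in the absence of PTPRC. ROBO4 was at 3.76, 2.75, 1.10 and 1.10 and ACTA2 at 4.14, 2.74, 2.79 and 5.21. The remaining ones were ZP3 (2.53, 2.40, 3.44 and 4.18) and the hair keratins KRT34 (26.7, 10.01, 5.16 and 5.69) and KRT31 (8.45, 13.9, 10.5 and 6.96). VWF, of endothelium, reached 15.3, 1.76, 1.126 and 0.652 and was not detected in every library.

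The depth of the lowest values differed between libraries. Genes with exactly 1 read numbered 943, 950, 97 and 179 in shCtrl 1 to 4, and those with 1 to 3 reads 1871, 1913, 156 and 538. Genes with no read numbered 7917, 8391, 11126 and 9601, of 24772 with a readable length, although shCtrl 3 was the deepest library. A gene of 2 kilobases with 3 reads has 0.0286 to 0.0347 RPKM, so the counts of genes at 0 moved with the library while the count of detected genes rested on levels well above it. Reads are not molecules, and any such limit covers counting error only.

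**Figure D3:**
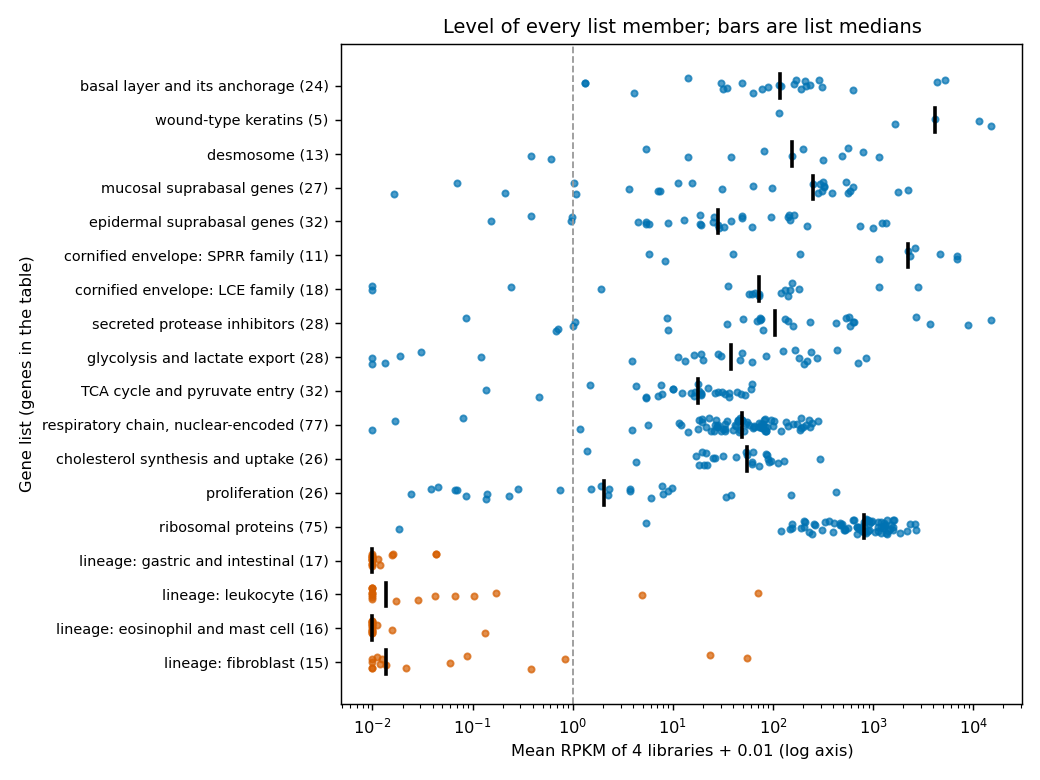
Mean RPKM over the 4 shCtrl libraries plus 0.01 (log axis) for every gene of 18 lists, 1 point a gene, with the number of genes in brackets; black bars are list medians and the dashed line is 1 RPKM. Wound-type keratins, SPRR and ribosomal protein genes have the highest medians, proliferation genes straddle the dashed line, and 4 lists of other lineages (orange) lie mostly at the left edge, where genes listed at 0 are drawn.

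Most genes differed little among the 4 libraries, and a small group differed greatly. For the 7085 genes with a mean of at least 5 RPKM the median ratio of highest to lowest library was 1.68-fold on the log2(RPKM + 0.1) scale, and it was 1.26-fold at percentile 10 and 2.86-fold at percentile 90. A range of at least 4-fold was found for 320 genes, 4.52%. Just inside that limit lay UBALD1 (4.00-fold) and INSIG1 (4.01-fold), and just outside it EPGN (3.99-fold) and MFSD10 (3.98-fold). Of the 320, 179 were highest in shCtrl 1 (55.9%), 32 in shCtrl 2 (10%), 62 in shCtrl 3 (19.4%) and 47 in shCtrl 4 (14.7%). Among all 7085 genes, the shares highest in each library were 25.2, 29.8, 19.2 and 25.8%. With shCtrl 1 left out the count was 91. The mean includes the highest library, so a gene can pass 5 RPKM through that library alone. The numbers of genes at 1 to 3 reads, given above, also differed between libraries, and their part in these ranges was not tested.

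The narrowest ranges, ranked among genes with a mean of at least 20 RPKM, belonged to genes of varied functions. PMEPA1, a negative regulator of TGF-beta signalling, had 28.7, 29.4, 28.3 and 28.4, a 1.04-fold spread. TOM1, of endosomal sorting, had 49.4, 50.4, 48.3 and 49.8, EMP2, a membrane protein, 21.3, 21.9, 21.2 and 22.1, and SCAMP3, of vesicle recycling, 39.1, 38.001, 39.7 and 39.5. GTF3C5, of RNA polymerase III transcription, had 20.5, 21.3, 20.4 and 20.4, PSMB7, a proteasome subunit, 114, 116, 112 and 117, and F11R, a tight junction adhesion molecule, 57.7, 58.4, 60.8 and 60.4. None of the 8 narrowest was a cornification gene. The epidermal differentiation complex holds only 47 of the 7085 genes with a mean of at least 5 RPKM, so this absence says little.

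**Figure D4:**
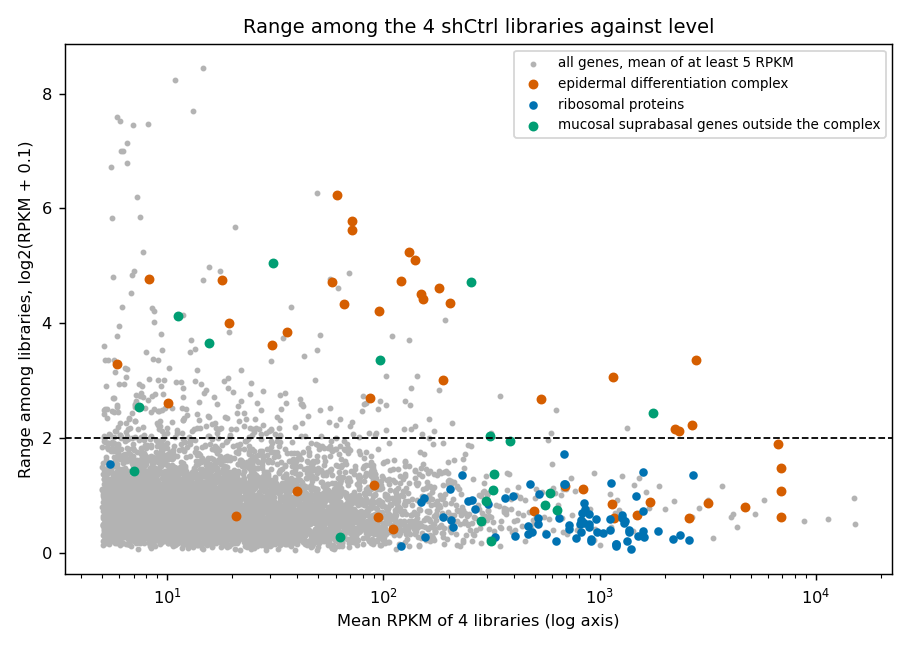
Range among the 4 shCtrl libraries, as the difference of highest and lowest log2(RPKM + 0.1), against mean RPKM (log axis) for the 7085 genes with a mean of at least 5 RPKM; the dashed line is 4-fold. Grey points are all genes, and the coloured ones mark the epidermal differentiation complex (28 of 47 at or above the line), listed ribosomal protein genes (0 of 74, without RPL36A, which the list did not hold) and mucosal suprabasal genes outside the complex.

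The 20 widest ranges, under the same minimum of 20 RPKM, were mostly cornification genes, 12 of them in the epidermal differentiation complex. Besides ASPRV1, 11 LCE genes and KPRP, they held NLRP10, an inflammasome-related gene of keratinocytes, at 70.7, 6.66, 1.28 and 3.88, PAPL, a purple acid phosphatase-like gene, at 191, 21.2, 6.93 and 8.19, and FCHSD1, an F-BAR protein, at 209, 19.8, 8.40 and 8.99. All of these were highest in shCtrl 1, as were LGALS7B and GDF15, a stress-induced secreted factor that had 82.97, 4.15, 6.97 and 54.9. Only CLCA4 and KRT13, both mucosal, were lowest in shCtrl 1 and highest in shCtrl 3. The mean includes the highest library, so a gene can pass 20 RPKM through shCtrl 1 alone. In LCE6A, NLRP10, LCE1B, LCE2A, LCE1D and FCHSD1 no library but shCtrl 1 reached 20 RPKM. Besides shCtrl 1, only shCtrl 2 reached it in ASPRV1, LCE3A, LCE1C, PAPL and LGALS7B. The part of this filter in the number of genes highest in shCtrl 1 was not tested. Among the LCE genes of this group LCE1B had 262, 13.6, 4.64 and 7.81, LCE3A 248.5, 22.97, 4.95 and 10.4, LCE1C 466, 25.9, 12.3 and 18.4, LCE2A 197, 16.5, 7.38 and 10.996 and LCE1D 218, 16.9, 10.7 and 16.1. The fewest reads behind any of these values was 70, for LCE3A in shCtrl 3. Their median length was 668.5 bases.

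**Figure D5:**
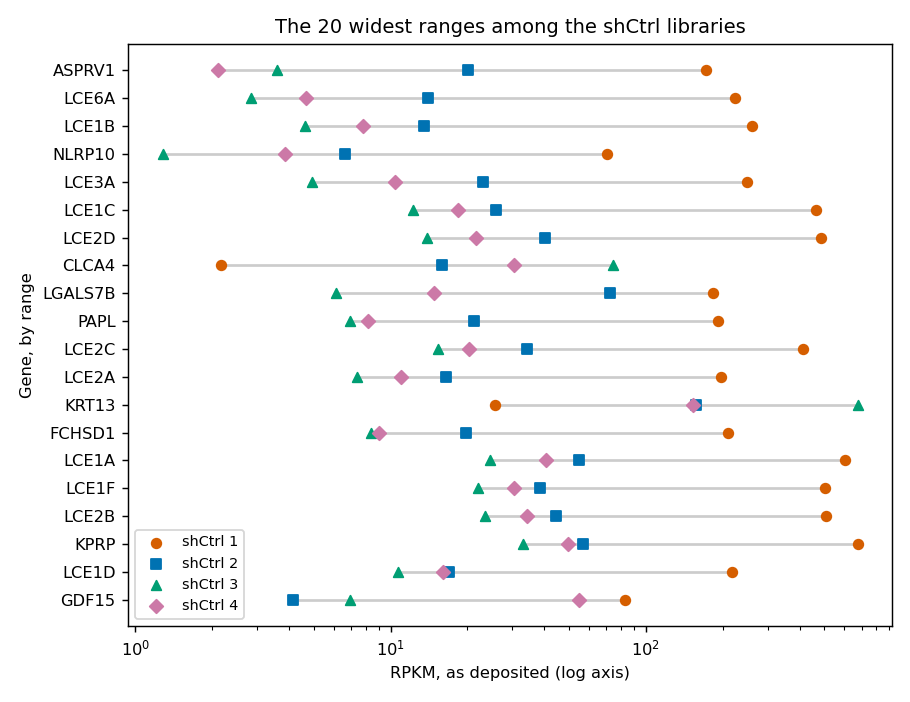
RPKM (log axis) in each shCtrl library for the 20 genes with the widest range and a mean of at least 20 RPKM, ordered by range; the grey line joins the lowest and the highest library. For 18 of the 20 the highest point is shCtrl 1, at 70.7 RPKM or more, and for CLCA4 and KRT13 it is shCtrl 3.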

How the data were processed

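Libraries of column-purified total RNA were made with an NEBNext Ultra kit, per the labels' protocols. The aligners TopHat2 2.0.13 and Bowtie2 2.2.3.0 and the counter HTSeq 0.6.1 are listed, per the submitters' processing notes, next to Picard 1.129 and SAMtools 1.3.1. Both hg19 and hg38 are listed there with no role, and the contig names of the table are those of hg19. The strand setting used by HTSeq is not stated.

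The deposited values are RPKM made by the authors, in a table named for counts. Value times gene length was a whole multiple of 1 step per library for 100% of values under 1000 reads, within 0.01 read, which gave the depths. For 597 genes the length was unreadable, and 28 gene names had become dates.

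Ranges are on log2(RPKM + 0.1), computed with Python 3.11.15, and a 4-fold range at a mean of at least 5 RPKM is called wide. The range rule was tested on simulated data. No groups were compared, and Dixon's test was used only to find libraries that lay apart. The genes named are the 25 highest, the highest 3 of each of 39 lists (2 for other lineages), the 20 widest and 8 narrowest at a mean of at least 20 RPKM, markers and fixed genes, with further list members, chosen after their values were seen, shown for their role. A few genes that fall under these rules are not reported here. Members and lists were chosen with earlier results of these data known. Gene types and promoters came from RefSeq, by symbol, with 24191 genes matched. Promoter sequences are of GRCh38.p14.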

Additional observations from a re-analysis of the deposited data

Results flagged for a closer look

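In 27 of 159 results looked at, 1 of the 4 libraries lay apart from the other 3 by a gap above the 95% limit of Dixon's test. Chance gives about 1 in 20 if values are normally distributed. The test was run on RPKM and on shares without logs, a scale that draws high values apart. The count can therefore not be set against that rate. In 25 of the 27 the library was shCtrl 1, on the high side. The results are not independent, and 16 of the 27 are among the 20 genes of widest range, which were chosen for it. GTF3C5, another of the 27, was chosen for its narrow range.

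The summed share of the LCE family was 2.92% of RPKM in shCtrl 1 against 0.248 to 0.631% in the others, and that of the epidermal suprabasal genes 1.60% against 0.959 to 1.009%. LCE genes apart in shCtrl 1 were LCE6A (223 RPKM, others 2.85 to 14.02), LCE1B (262 RPKM, others 4.64 to 13.6), LCE3A (248.5 RPKM, others 4.95 to 23.0), LCE1C (466 RPKM, others 12.3 to 25.9), LCE2D (484 RPKM, others 13.9 to 40.4), LCE2C (413 RPKM, others 15.4 to 34.3), LCE2A (197 RPKM, others 7.38 to 16.5), LCE1A (604 RPKM, others 24.6 to 54.96), LCE1F (503 RPKM, others 22.1 to 38.4), LCE2B (509.9 RPKM, others 23.5 to 44.4) and LCE1D (218 RPKM, others 10.7 to 16.9).

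Other genes of wide range apart in shCtrl 1 were ASPRV1 (171 RPKM, others 2.12 to 20.03), NLRP10 (70.7 RPKM, others 1.28 to 6.66), PAPL (191 RPKM, others 6.93 to 21.2), FCHSD1 (209 RPKM, others 8.40 to 19.8) and KPRP (675 RPKM, others 33.0 to 56.9). Further genes of epidermal differentiation with shCtrl 1 apart were FLG (93.2 RPKM, others 7.497 to 11.1), KRTDAP (2972 RPKM, others 659 to 960.4) and SBSN (1714 RPKM, others 1012 to 1129.6). Outside that program were KRT23 (603 RPKM, others 36.0 to 97.1), ACADVL (181 RPKM, others 102 to 111), VWF (15.3 RPKM, others 0.652 to 1.76) and PITX1 (424 RPKM, others 251 to 276). KRT23 encodes a keratin, ACADVL a mitochondrial dehydrogenase of long fatty acids, VWF a clotting factor of endothelium and PITX1 a homeobox factor.

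In 2 genes with small differences another library was apart. GTF3C5 had 21.3 RPKM in shCtrl 2 against 20.4 to 20.5, and CS had 62.9 in shCtrl 4 against 58.6 to 58.7.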

How the results depend on the processing

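In all, 26 results were recomputed with other settings, which gave 135 values, of which 120 stayed within the spread among libraries or, for counts, within 1.5 times. That spread includes the library left out, so staying within it does not show stability. The LCE level counted as staying, though it fell from 71.8 to 13.7 RPKM without shCtrl 1. Detection at 5 RPKM in every library left 5987 genes. As a share of reads and not of RPKM, the 20 most abundant genes held 14.9% and the epidermal differentiation complex 4.32%. The count of genes with a 4-fold range was 750 at a mean of at least 1 RPKM and 132 at 20 RPKM, by the construction of the limit, 258 with a pseudocount of 1, 319 with median-of-ratios scaling and 312 with equal RPKM sums. Chosen after seeing the data, protein-coding genes alone gave 267 and genes with at least 20 reads in every library 283. Leaving out each library in turn gave 91 to 270 such genes, lowest without shCtrl 1. The same step gave median ranges of 1.05 to 1.95 for the mucosal, 0.763 to 1.76 for the epidermal, 1.15 to 4.67 for the LCE and 0.477 to 0.919 for the glycolysis list. It gave median levels of 112 to 286 RPKM for the mucosal, 1381 to 2456 for the SPRR and 13.7 to 94.1 for the LCE list. The cause was not tested. No paired analysis was possible because no groups were compared. Depth limits only the genes at a few reads, whose number differed between libraries.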

Other observations

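Stress-response genes parted the libraries in another way. After single values had been seen, 29 genes of the amino acid and endoplasmic reticulum stress response were put together, so their counts are a description and support nothing. Of the 28 with a mean of at least 5 RPKM, 24 were highest in shCtrl 1 (25.2% of all such genes), none in shCtrl 2 or 3, and 18 were lowest in shCtrl 2 (20.6% of all such genes). TRIB3, a pseudokinase induced by ATF4, had 279, 46.9, 53.4 and 149 RPKM in shCtrl 1 to 4, and CHAC1, which degrades glutathione, had 100.03, 21.7, 18.97 and 37.8. The folate enzyme MTHFD2 had 75.03, 11.6, 21.96 and 55.1 and the cystine transporter SLC7A11 had 17.1, 1.125, 4.50 and 14.7. ATF4 itself, the factor behind many of these genes, was more even, at 126, 71.2, 92.6 and 105.

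Immediate early and circadian genes, gathered in the same way, were mostly highest in shCtrl 1 or 4 and lowest in shCtrl 2. Of 16 immediate early genes with a mean of at least 5 RPKM, 9 were highest in shCtrl 4 and 7 in shCtrl 1 (25.8 and 25.2% of all such genes), and 13 were lowest in shCtrl 2 (20.6%). EGR1, a growth factor response gene, had 26.8, 7.94, 18.998 and 56.9, EGR3 40.3, 10.8, 16.99 and 45.97 and PHLDA1 62.4, 34.9, 71.3 and 218. Of 11 clock genes with such a mean 9 were lowest in shCtrl 2, the exceptions being NPAS2, highest in shCtrl 3 and lowest in shCtrl 1, and NFIL3, lowest in shCtrl 3. The repressor genes NR1D1 and PER2 had 31.5, 5.75, 24.3 and 22.5 (NR1D1) and 6.03, 3.03, 4.02 and 15.3 (PER2), and NFIL3 had 70.1, 12.5, 12.3 and 13.5. The activator ARNTL was low and even, at 4.53, 3.50, 3.72 and 3.45. Harvest times of the libraries are not given in the labels, and their part in this was not tested.

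Long non-coding RNAs made 0.502% of all RPKM, with 123 of 2234 detected. MIR205HG, the host of a squamous microRNA, led with 274, 179, 302 and 416, followed by H19 with 265, 107, 251 and 392. NEAT1, the scaffold of paraspeckles, had 374, 76.6, 74.3 and 124 and UCA1 had 231, 38.5, 92.2 and 50.8, both highest in shCtrl 1. ZFAS1, a snoRNA host, was even, at 154, 139.97, 142 and 146.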
